A study of Mus musculus with 10 samples.

Results

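Spinal cord neuron and progenitor genes were followed through 10 RNA-seq libraries of mouse dorsal root ganglia (DRG), the sensory ganglia that lie beside the spinal cord. The 31 genes were taken by symbol from a list of markers of spinal cord cell classes, with no filter on low counts, out of 55414 genes in the count tables. They comprised 10 genes of dorsal inhibitory neurons, 5 of dorsal excitatory neurons, 7 of ventral interneurons, 4 of motor neurons and 5 of progenitors and the oligodendrocyte lineage. Of these, 29 had at least 1 count in some library, and Evx1 and Sox14 had none. Most are markers of cell classes of the spinal cord rather than of the ganglia, and their counts were compared between libraries by class. Some, such as Slc5a7, Gata2 and Gbx1, had at least 10 counts in every library.

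The libraries came from ganglia at E18.5, 5 from controls and 5 from WD1 cKO embryos. WD1 cKO embryos carried Wnt1 Cre/+ with Dach1 flox/flox, and controls carried Dach1 flox/flox without Cre, so both groups shared the floxed alleles. Wnt1-Cre acts in the premigratory neural crest, from which the DRG arise, and also in the dorsal neural tube, so the deletion was not limited to sensory neurons. Samples were grouped by their titles, since the labels list the 2 genotypes the other way round. Dach1 lay at 34.9 to 41.5 CPM (counts scaled to a common library size) in the 5 libraries titled control and at 19.0 to 20.8 CPM in the 5 titled WD1 cKO. The study describes the controls as littermates of the WD1 cKO embryos, and the labels do not say which libraries came from the same litter. Libraries held 19757596 to 34796562 counts. The summed level of 9 DRG neuron genes was 4655 to 5232 CPM and that of 5 DRG glia genes 680 to 853 CPM, so every library carried the markers of its labelled tissue.

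In the developing spinal cord, transcription factors divide progenitors and newborn neurons into dorsal and ventral classes. Dorsal horn interneurons descend largely from cells that express Lbx1. Those that go on to express Pax2, Lhx1, Lhx5, Pax8 or Gbx1 become inhibitory and make GABA and glycine, and those that express Lmx1b become excitatory. Ventral interneurons pass through stages marked by En1, Evx1, Sox14 or Gata2 and Gata3, motor neurons through Mnx1, and Olig2 progenitors give rise first to motor neurons and later to oligodendrocyte precursors. Several of these factors fade as neurons mature, so a low count of one does not show that its cell class was missing.

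The genes that set 1 library apart, control replicate 3, included a fate factor of inhibitory neurons, the transporter that fills their vesicles and a fate factor of excitatory neurons. Windows of 300 bases around the start of each are shown as the regulatory sequence next to these transcripts (RefSeq, GRCm38.p6, 250 bases before to 50 after the start, 5′ to 3′ on the gene's strand). Capitals mark the E-box CAGCTG, which reads the same on both strands. The windows are Pax2 at chr19:44755502-44755801 on the plus strand, Slc32a1 at chr2:158610508-158610807 on the plus strand and Lmx1b at chr2:33641049-33641348 on the minus strand.
Pax2: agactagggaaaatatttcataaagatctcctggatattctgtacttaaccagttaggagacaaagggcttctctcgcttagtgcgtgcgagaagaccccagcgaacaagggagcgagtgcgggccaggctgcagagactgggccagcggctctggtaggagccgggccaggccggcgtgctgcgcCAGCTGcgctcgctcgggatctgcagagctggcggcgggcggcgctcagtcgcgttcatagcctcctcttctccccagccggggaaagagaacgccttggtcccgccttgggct
Slc32a1: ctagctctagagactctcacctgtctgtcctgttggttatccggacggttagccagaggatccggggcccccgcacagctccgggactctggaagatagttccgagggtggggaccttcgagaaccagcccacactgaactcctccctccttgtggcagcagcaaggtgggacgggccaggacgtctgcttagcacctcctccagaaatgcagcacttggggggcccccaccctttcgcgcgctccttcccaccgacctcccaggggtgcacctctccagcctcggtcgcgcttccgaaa
Lmx1b: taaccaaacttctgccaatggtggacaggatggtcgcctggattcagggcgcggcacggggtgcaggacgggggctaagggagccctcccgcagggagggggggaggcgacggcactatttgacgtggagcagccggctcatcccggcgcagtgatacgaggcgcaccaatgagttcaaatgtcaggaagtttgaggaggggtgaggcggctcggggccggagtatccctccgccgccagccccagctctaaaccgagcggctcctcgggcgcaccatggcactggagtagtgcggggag
Windows were found for 27 of the 31 genes, 34 windows in all, of which 8 held CAGCTG. Of the 3 Pax2 windows, only the one printed held it. Among the 13 genes that control replicate 3 sets apart most, 10 had a window and 1 of these held CAGCTG, against 6 of 17 other listed genes with a window. The share over all 32851 RefSeq windows of this length was 16.3%, counted per window, as were the 8 of 34, and not per gene. A match describes the letters in the window and no more.

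Of the 5 listed classes, dorsal inhibitory genes had the highest sum in control replicate 3. The 10 genes summed to 31.2 CPM there and to 2.10 to 3.54 CPM in the other 9 libraries, 11.5 times the median of those 9. All 10 were highest in control replicate 3, and 9 of them exceeded the next library more than 3 times.

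Slc6a5 (ENSMUSG00000039728) encodes the glycine transporter that marks glycinergic neurons. It had 99 counts in control replicate 3, and 3, 2, 0 and 0 counts in control replicates 1, 2, 4 and 5. WD1 cKO replicates 1 to 5 had 0, 2, 11, 2 and 2 counts. The control 3 level was 4.65 CPM (95% exact binomial interval 3.78 to 5.66), 48.1 times the pooled level of the other 9 libraries (interval 30.1 to 80.2). Such intervals cover counting error only. The second highest library was WD1 cKO replicate 3 at 0.368 CPM, so the groups overlapped.

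Slc32a1 encodes the vesicular transporter that loads GABA and glycine. It had 70 counts in control replicate 3, at most 1 in the other controls, and 1, 1, 9, 1 and 3 in WD1 cKO replicates 1 to 5. Its level in control replicate 3 was 3.29 CPM, 46.8 times the other libraries pooled (26.9 to 86.3). Again 1 library was high and WD1 cKO replicate 3 came next.

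Gad1 and Gad2 encode the enzymes that make GABA. Gad1 had 164 counts in control replicate 3 and 9 to 25 in the others, or 7.70 against 0.455 to 1.09 CPM. Unlike the transporters it was therefore present at a low level in every library, and control replicate 3 exceeded the others pooled 10.1 times (8.14 to 12.6). Gad2 had 42 counts against 0 to 4, a ratio of 28.1 (15.4 to 53.5).

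The transcription factors of the same neurons followed. Pax2 (ENSMUSG00000004231), required for the inhibitory fate, had 0, 2, 81, 1 and 1 counts in control replicates 1 to 5 and 2, 0, 6, 0 and 4 in WD1 cKO replicates 1 to 5. Lhx1 had 1, 1, 67, 0 and 1 counts in the controls and 0, 1, 2, 0 and 4 in WD1 cKO. Outside control replicate 3, both stayed at 6 counts or fewer. Control replicate 3 exceeded the other libraries pooled 54.1 times for Pax2 (31.4 to 99.2) and 71.6 times for Lhx1 (36.6 to 156).

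Lbx1, which specifies the dorsal horn lineage itself, had 41 counts in control replicate 3 and 0 to 4 elsewhere, a ratio of 39.9 (20.1 to 86.0). Lhx5, a relative of Lhx1, had 12 counts against 0 to 3. Pax8, a relative of Pax2, had 31 counts against 1 to 12, a ratio of 5.82 (3.63 to 9.16). These 3 factors thus showed the same library as high, Pax8 over a clear level in the others.

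Gbx1, a homeobox factor of dorsal inhibitory neurons, was the exception in the class. It had 20 to 57 counts in every library, with 57 counts in both control replicate 3 and WD1 cKO replicate 5. Its level was 2.68 CPM in control replicate 3 (2.03 to 3.47) and 1.97 CPM in control replicate 5, the next in order, which lay just outside that interval.

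**Figure D1:**
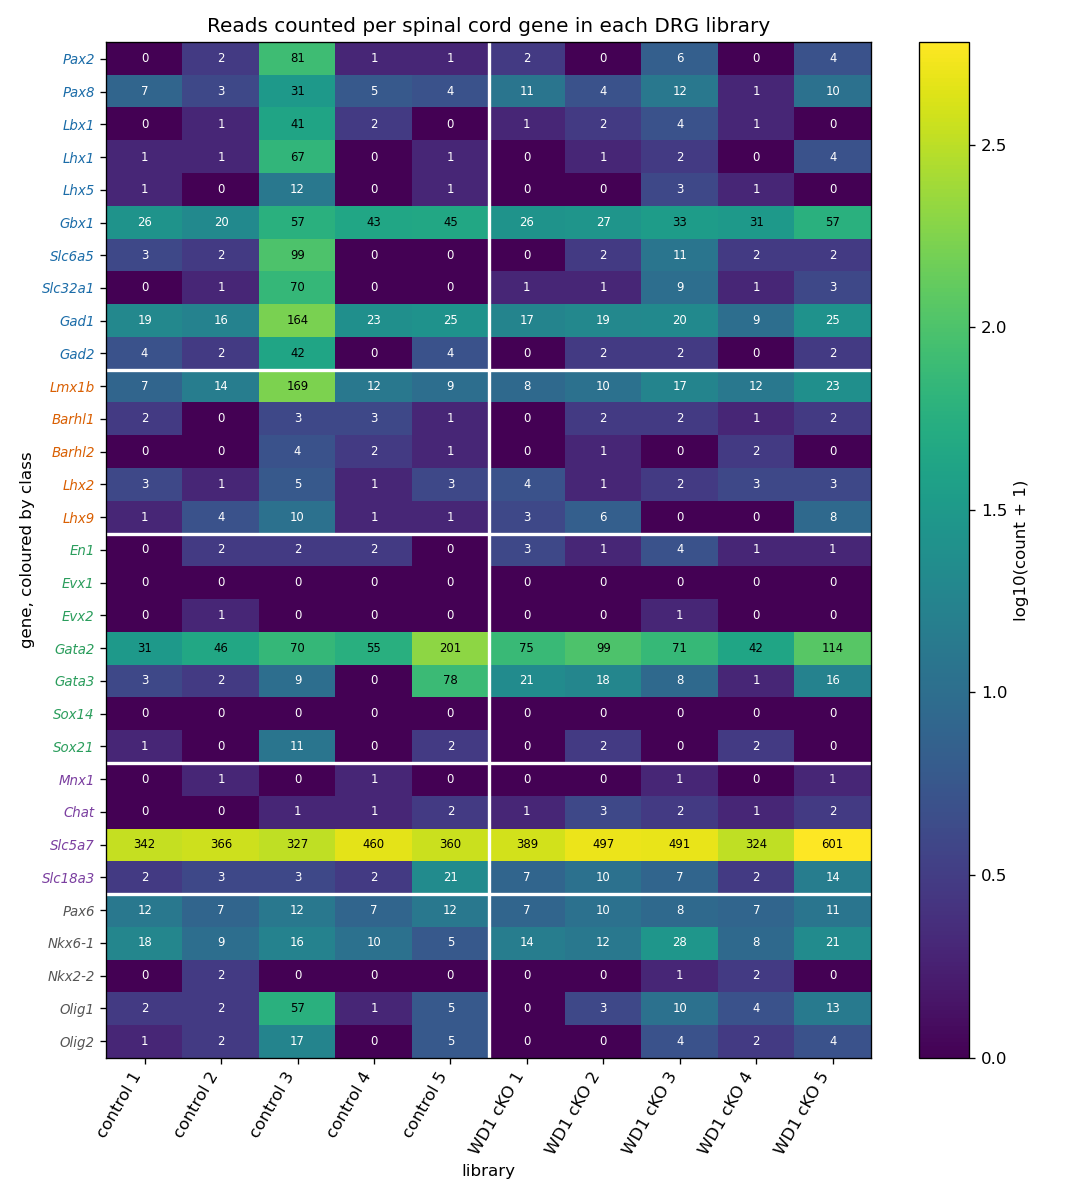
Reads counted for each of the 31 genes (rows, coloured by class) in each of the 10 libraries (columns), printed in the cells and coloured as log10(count + 1). The column of control replicate 3 stands out among dorsal inhibitory genes, Lmx1b, Olig1 and Olig2, and that of control replicate 5 in Gata2, Gata3 and Slc18a3.

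Among the 5 dorsal excitatory genes, Lmx1b (ENSMUSG00000038765), a fate factor of glutamatergic dorsal horn neurons, carried almost all of the signal. It had 169 counts in control replicate 3, the highest count of any dorsal gene, and 7, 14, 12 and 9 counts in the other controls. WD1 cKO replicates 1 to 5 had 8, 10, 17, 12 and 23 counts. The level was 7.94 CPM against 0.335 to 0.669 CPM, 16.1 times the other libraries pooled (12.6 to 20.7).

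The other 4 excitatory genes mark the most dorsal neuron classes. Barhl1 had 3 counts in control replicate 3, Barhl2 4, Lhx2 5 and Lhx9 10, and elsewhere they had at most 3, 2, 4 and 8 counts. Each was highest in control replicate 3 by CPM, but the interval of Lhx9 (0.225 to 0.864 CPM) reached the next library at 0.233 CPM, and those of the other 3 also held the next library. The class sum was 8.97 CPM in control replicate 3 and 0.628 to 1.05 CPM elsewhere, 12.8 times the median.

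Oligodendrocyte lineage genes were high in the same library. Olig1 had 2, 2, 57, 1 and 5 counts in control replicates 1 to 5 and 0, 3, 10, 4 and 13 in WD1 cKO replicates 1 to 5. Olig2, which sets up motor neuron and then oligodendrocyte progenitors, had 17 counts in control replicate 3 and 0 to 5 in the others. Control replicate 3 exceeded the other libraries pooled 15.2 times for Olig1 (9.99 to 23.4) and 10.1 times for Olig2 (4.89 to 20.8).

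The progenitor factors did not follow. Nkx2-2, of ventral progenitors and oligodendrocyte precursors, had 0 counts in control replicate 3 and at most 2 elsewhere. Pax6, a progenitor factor along much of the neural tube, had 12 counts in control replicate 3 and 7 to 12 in the others. Nkx6-1, a ventral progenitor factor, had 16 counts against 5 to 28. Control replicate 3 was not the highest library for either gene and lay within the range of the other libraries.

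Ventral interneuron factors were near absent from all libraries apart from Gata2, Gata3 and Sox21. En1, of ventral inhibitory interneurons, had 2 counts in control replicate 3 and 0 to 4 elsewhere. Evx1 and Sox14 were at 0 everywhere, and Evx2 had 0 in control replicate 3 and at most 1 elsewhere. A count of 0 in control replicate 3 allows up to 3 counts, or 0.141 CPM, a one-sided limit, and the exact interval used for the other genes reaches 0.173 CPM. Sox21, which also marks progenitors, had 11 counts in control replicate 3 and 0 to 2 elsewhere, a ratio of 16.8 (5.95 to 51.1).

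Motor neuron genes were not raised in control replicate 3. Mnx1, the motor neuron fate factor, had 0 counts there and at most 1 elsewhere. Chat, which makes acetylcholine, had 1 count there and 0 to 3 elsewhere. Slc18a3, the vesicular acetylcholine transporter, had 3 counts there and 2 to 21 elsewhere. The defining markers of motor neurons were thus at or near 0 in the library with the highest sums of the 2 classes listed as dorsal. Whether the transcripts of those classes came from dorsal or ventral cells was not tested.

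Slc5a7, the choline transporter of cholinergic neurons, was a different case. It had 324 to 601 counts in every library, or 15.4 to 19.0 CPM, with control replicate 3 the lowest at 15.4 CPM. It made up most of the motor neuron class sum, which was 15.5 CPM in control replicate 3 and 16.2 to 19.5 CPM elsewhere. Its highest library was WD1 cKO replicate 2, so its order over libraries was not that of the dorsal genes.

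**Figure D2:**
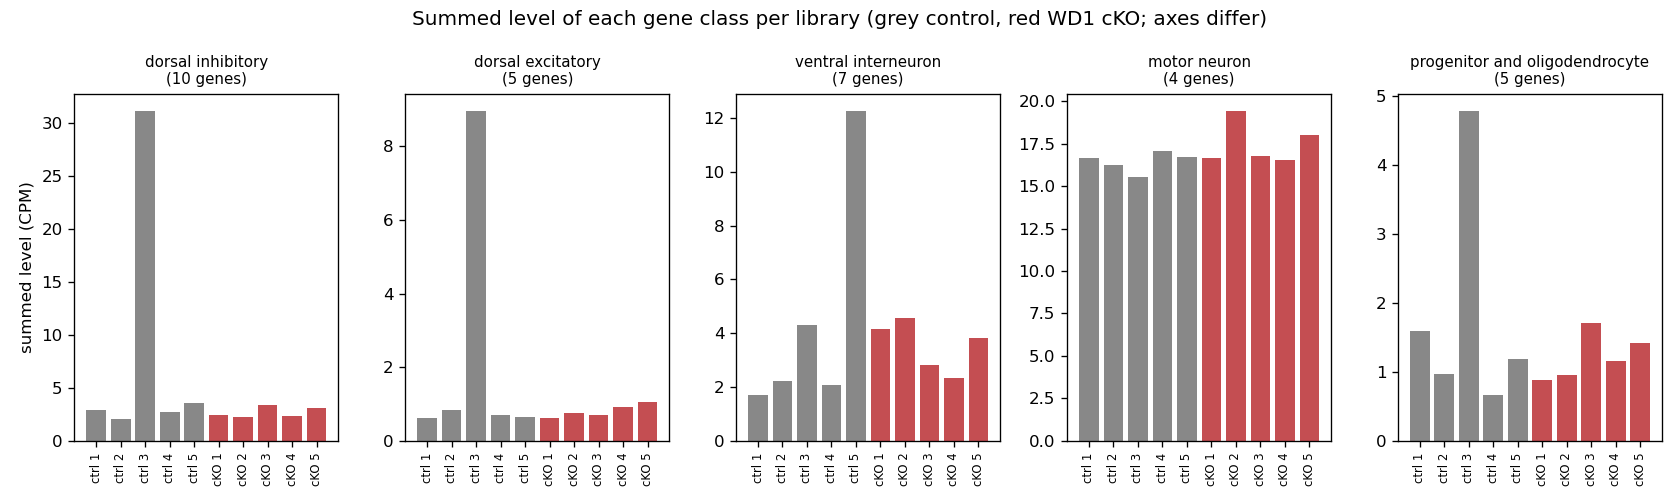
Summed level in CPM of each gene class (panels, each with its own axis from 0) in each library (bars, grey control, red WD1 cKO). Control replicate 3 is the highest bar for dorsal inhibitory (31.2 CPM), dorsal excitatory (8.97 CPM) and progenitor and oligodendrocyte genes (4.79 CPM), control replicate 5 for ventral interneuron genes (12.3 CPM), and the motor neuron panel is nearly level.

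Compared per kilobase of exon (GRCm38 gene models), the levels within control replicate 3 could be set in order among genes. Slc5a7 was highest at 2.72 CPM per kb, followed by Lmx1b at 1.63, Olig1 at 1.24, Slc32a1 at 1.18 and Gad1 at 1.01 CPM per kb. Lbx1, Lhx1 and Gbx1 lay between 0.770 and 0.775 CPM per kb, Pax2 at 0.703 and Slc6a5 at 0.645 CPM per kb. The remaining inhibitory genes were lower, Gad2 at 0.336, Pax8 at 0.240 and Lhx5 at 0.21 CPM per kb. The excitatory factor Lmx1b thus lay above every listed inhibitory gene in this library, by unequal margins. Per kilobase, its counting interval overlapped that of Slc32a1. The order includes what the other libraries also held. Over all libraries the median was 2.91 CPM per kb for Slc5a7 and 0.407 for Gbx1, against 0.103 for Lmx1b and 0.0153 for Slc32a1. The steps between Lbx1, Lhx1, Gbx1 and Pax2 were smaller than their counting intervals.

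Across all classes, 21 genes reached 10 counts in some library, and 13 of these were highest in control replicate 3 by more than 3 times the next library with at least 10 counts. These were Pax2, Pax8, Lbx1, Lhx1, Lhx5, Slc6a5, Slc32a1, Gad1, Gad2, Lmx1b, Sox21, Olig1 and Olig2. Over all 19381 genes with 10 counts in some library, the share was 0.201%, or 39 genes, so 13 of those 39 were listed genes. The list was drawn up with part of this pattern known, and the count is a description. WD1 cKO replicate 1 had 41 such genes of its own, with none of the 31 among them.

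Other lists were compared in the same way. Of 15 further spinal neuron genes, 1 passed the same mark in control replicate 3, Skor1, a co-repressor that works with Lbx1, with 49 counts against 0 to 11. Of 8 forebrain and midbrain genes 1 passed, Neurod6, with 29 counts against 0 to 6. None of 8 astrocyte genes and none of 10 ventricular progenitor genes passed, although 5 of the 8 and 4 of the 10 were highest in control replicate 3. Slc1a2, a glutamate transporter of astrocytes, was at 26.3 CPM there and at 9.60 to 13.1 CPM elsewhere. Slc6a11, a GABA transporter, was at 30.8 CPM there and at 11.03 to 20.4 CPM elsewhere. Gfap, a glial filament protein, was at 4.51 CPM in control replicate 3, at 3.32 CPM in control replicate 5 and at 0.545 to 1.77 CPM in the others. Glia of the ganglia express several of these genes too. The list sums in control replicate 3 were 256 CPM for astrocyte genes, against 162 to 266 CPM elsewhere and with Gja1 as the largest part, and 25.7 CPM for ventricular progenitor genes, against 21.1 to 25.0 CPM.

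**Figure D3:**
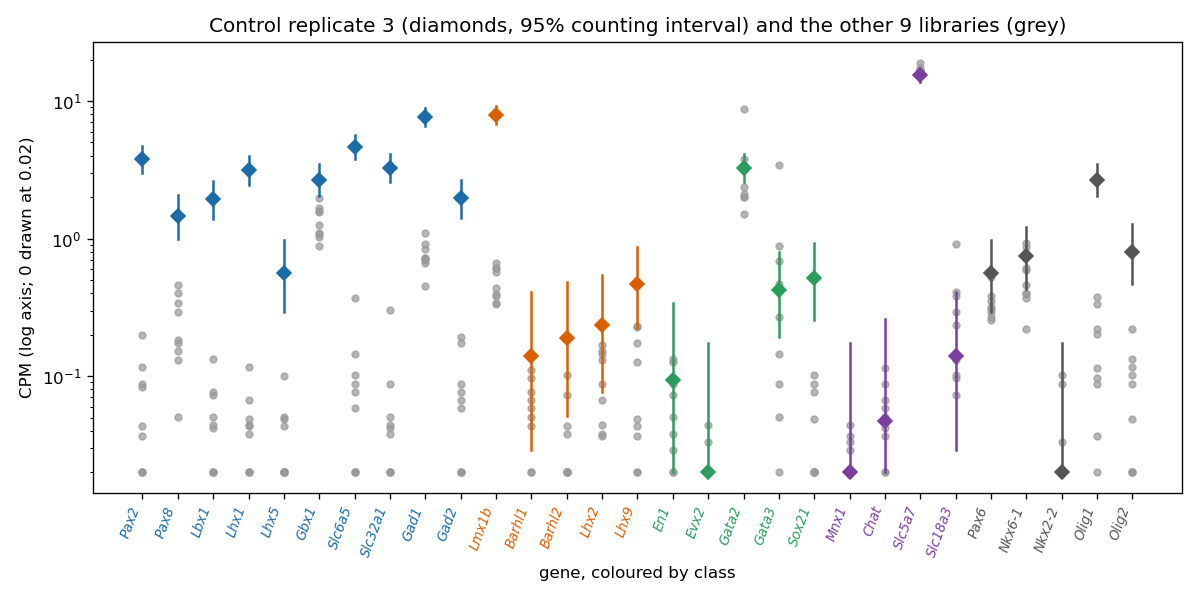
Level in CPM (log axis, 0 drawn at 0.02) of the 29 genes with a count, with control replicate 3 as coloured diamonds with 95% exact binomial intervals and the other 9 libraries as grey points. Dorsal inhibitory genes, Lmx1b, Sox21, Olig1 and Olig2 stand clear of the grey points, and the motor neuron genes and most ventral genes do not.

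After control replicate 3, the second highest library varied between genes. WD1 cKO replicate 3 was second for 5 genes, namely Pax2, Lbx1, Lhx5, Slc6a5 and Slc32a1. WD1 cKO replicate 5, the deepest library, was second for Lhx1, Lmx1b, Lhx9 and Olig1, with 4, 23, 8 and 13 counts. The levels in WD1 cKO replicate 3 were 0.368 CPM for Slc6a5, 0.301 CPM for Slc32a1 and 0.201 CPM for Pax2, from 11, 9 and 6 counts. For Slc6a5 and Slc32a1 the counting intervals (0.184 to 0.658 and 0.138 to 0.571 CPM) lay above the highest of the remaining libraries, 0.146 CPM for Slc6a5 and 0.0873 CPM for Slc32a1. Lmx1b, at 17 counts and 0.569 CPM, and Gad1, at 20 counts and 0.669 CPM, were within the range of the remaining libraries there.

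Control replicate 5 was high in different genes. Gata2, which marks ventral interneurons and also sympathetic neurons, had 31, 46, 70, 55 and 201 counts in control replicates 1 to 5 and 75, 99, 71, 42 and 114 in WD1 cKO replicates 1 to 5. Gata3, its relative in both cell types, had 3, 2, 9, 0 and 78 counts in the controls and 21, 18, 8, 1 and 16 in WD1 cKO. In control replicate 5 the levels were 8.78 CPM for Gata2, 3.29 times the other libraries pooled (2.79 to 3.87), and 3.41 CPM for Gata3, 9.88 times (7.12 to 13.7). Slc18a3 was also highest there, with 21 counts and 0.918 CPM, 4.15 times (2.37 to 7.04). Gata3 alone of the 21 genes passed the mark of 3 times the next library in control replicate 5, where the share over all genes was 0.0826%.

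Several listed genes of sympathetic neurons were high in the same library. Dbh, which makes noradrenaline, had 1208 counts in control replicate 5, or 52.8 CPM, against 0.184 to 7.54 CPM elsewhere. The autonomic factors Phox2a and Hand2 were at 6.12 and 5.2 CPM there and at most at 1.22 and 1.00 CPM elsewhere. Th rose less, at 45.9 CPM in control replicate 5 against 18.4 to 33.5 CPM elsewhere. Npy did not follow, at 1.44 CPM in control replicate 5 and highest in control replicate 3, at 1.97 CPM. The 8 sympathetic genes summed to 151 CPM in control replicate 5 and to 34.0 to 60.9 CPM in the others. WD1 cKO replicates 1, 2 and 5, which had the next highest Gata3 levels (0.880, 0.687 and 0.466 CPM), also had the next highest Dbh levels (7.54, 4.54 and 6.37 CPM). Of the other ventral interneuron genes in control replicate 5, Sox21 had 2 counts and En1 and Evx2 had 0, as had Evx1 and Sox14, which were at 0 in every library. The part of sympathetic cells in the Gata2, Gata3 and Slc18a3 levels was not tested. In bulk tissue, more cells of a type and more transcript per cell cannot be told apart.

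**Figure D4:**
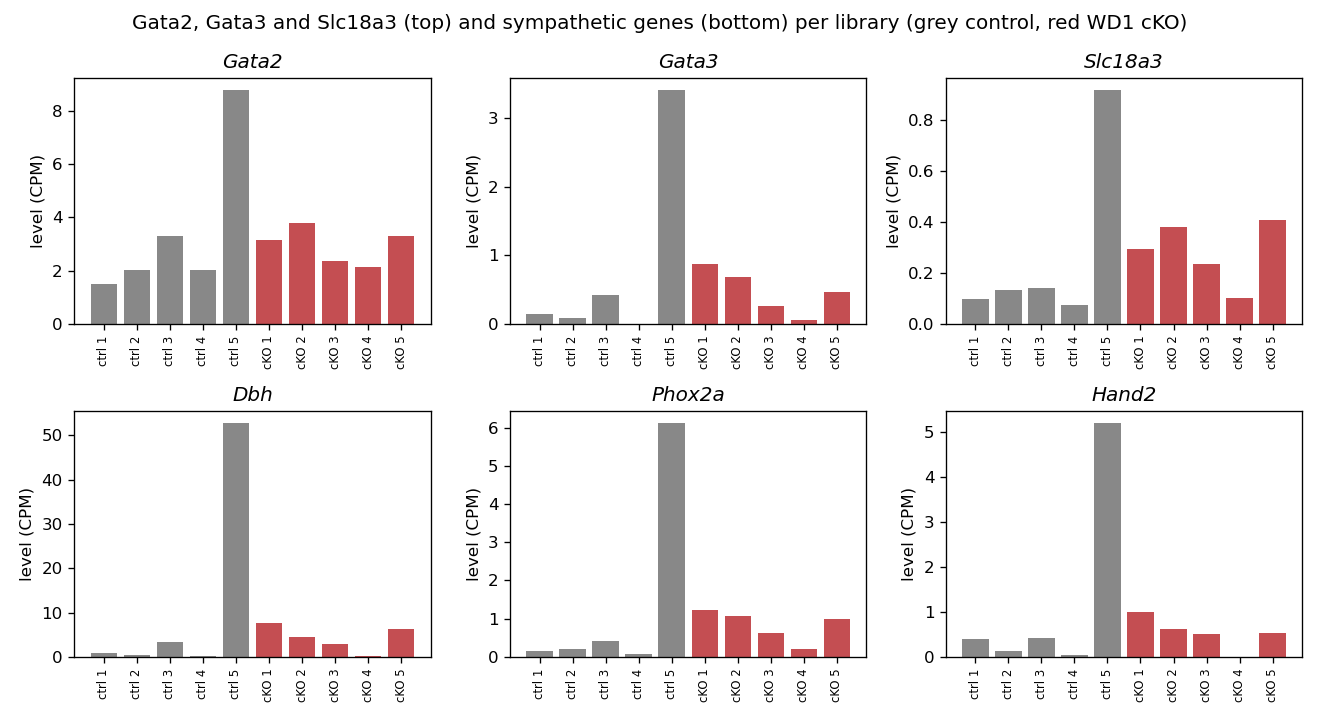
Level in CPM of Gata2, Gata3 and Slc18a3 (top row) and of the sympathetic genes Dbh, Phox2a and Hand2 (bottom row) in each library (bars, grey control, red WD1 cKO, each panel with its own axis from 0). Control replicate 5 is the highest bar in all 6 panels.

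The genotype comparison asked whether deletion of Dach1 changed these genes. None of the 29 genes with a count was called at an adjusted p under 0.05 by edgeR's quasi-likelihood test, where 10 of 37123 genes (0.0269%) were. At an unadjusted p under 0.05 there were 8 of the 29, against 4.03% of all genes, and all 8 had lower fitted levels in WD1 cKO. They were Pax2, Lbx1, Lhx1, Slc6a5, Slc32a1, Gad1, Gad2 and Lmx1b, each among the genes high in control replicate 3. DESeq2 also called 0 of the 29, where it called 0.0539% of all genes, had 1 gene, Gad2, at an unadjusted p under 0.05, and gave no p for 8 genes in which a single library lay far from the fit. Under a filter of 10 counts in 5 libraries, 7 listed genes were tested and none was called, against 0.0400% of genes. With the replicate number as a term in edgeR, the 8 genes named above were called, among 396 of 37123 genes. The numbers were not taken to pair the samples, so that fit was kept as an alternative. The median log2 fold change of the 29, WD1 cKO over control, was -0.67, with 23 negative and 6 positive, beside 0.0020 over all genes tested.

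These values rested on control replicate 3. Without it the median over the 29 genes was 0.06, with 13 negative and 16 positive, and 1 gene had an unadjusted p under 0.05, beside 3.73% of all genes. Among genes averaging 3 or more counts, 16 had a negative fitted change, and 9 of them turned positive. Pax2 went from -3.07 (SE 1.16, adjusted p = 0.777) to 0.95, Lhx1 from -3.51 (SE 1.23) to 0.58 and Lmx1b from -1.88 (SE 0.72) to 0.19 on the log2 scale. Slc32a1, the gene with an unadjusted p under 0.05, went from -2.50 (SE 1.15) to 2.87 (adjusted p = 0.845), on 1 count in all in the 4 remaining controls and 15 counts in WD1 cKO, of which 9 were in replicate 3.

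In no gene of the list were the groups apart, and over all genes 0.741% had groups that did not overlap. Gad1 came closest. Its control levels were 0.701 to 7.70 CPM and its WD1 cKO levels 0.455 to 0.728 CPM, with log2 fold changes of -1.74 (SE 0.55) with all libraries and -0.43 without control replicate 3 (unadjusted p = 0.0984 in edgeR). A two-sided exact permutation test of its log2 CPM over all splits of 5 against 5 gave p = 0.0317, unadjusted, where 0.00794 is the smallest this design allows. The same test was computed for every listed gene, and this p was the smallest of them. The next smallest permutation p was 0.119, for Slc5a7. No correction was made for picking the smallest, so it does not show a difference in Gad1.

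The sum over all 31 genes showed the same dependence. It was 33.7 ± 18.1 CPM in controls (SD, n = 5) and 25.7 ± 1.94 CPM in WD1 cKO (n = 5), and 25.9 ± 5.70 CPM in controls without replicate 3 (n = 4). Control replicate 3 stood at 64.8 CPM, 2.62 times the median of the other libraries. The dorsal inhibitory sum was 2.83 ± 0.594 CPM (SD, n = 4) in the remaining controls and 2.698 ± 0.531 CPM (n = 5) in WD1 cKO, a difference smaller than either spread.

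Control replicate 5 had the same weight on the genes high in it. The log2 fold change of Gata3 was -0.76 (SE 0.81) with all libraries and 1.58 without control replicate 5, and that of Gata2 -0.25 (SE 0.35) and 0.42. Slc18a3 went from 0.11 (SE 0.57) to 1.38. For Gata3 and Slc18a3 the unadjusted p without that library was 0.0251 and 0.0102, and no gene of the list was called after adjustment.

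The smallest standard errors were those of Slc5a7, Gbx1, Pax6 and Nkx6-1, which had counts in every library. Gad1 and Lmx1b also had counts in every library, but their standard errors were 0.55 and 0.72. Slc5a7 was at 16.1 ± 0.622 CPM in controls and 17.1 ± 1.15 CPM in WD1 cKO (SD, n = 5 each), a log2 difference of 0.09 (SE 0.07, adjusted p = 0.777 in edgeR). Gbx1 differed by -0.37 (SE 0.25), Pax6 by -0.45 (SE 0.32) and Nkx6-1 by 0.25 (SE 0.35) on the log2 scale, none past the threshold. Genes at a few counts, such as En1, Chat and Mnx1, were too low for a difference to be detectable at this depth.

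**Figure D5:**
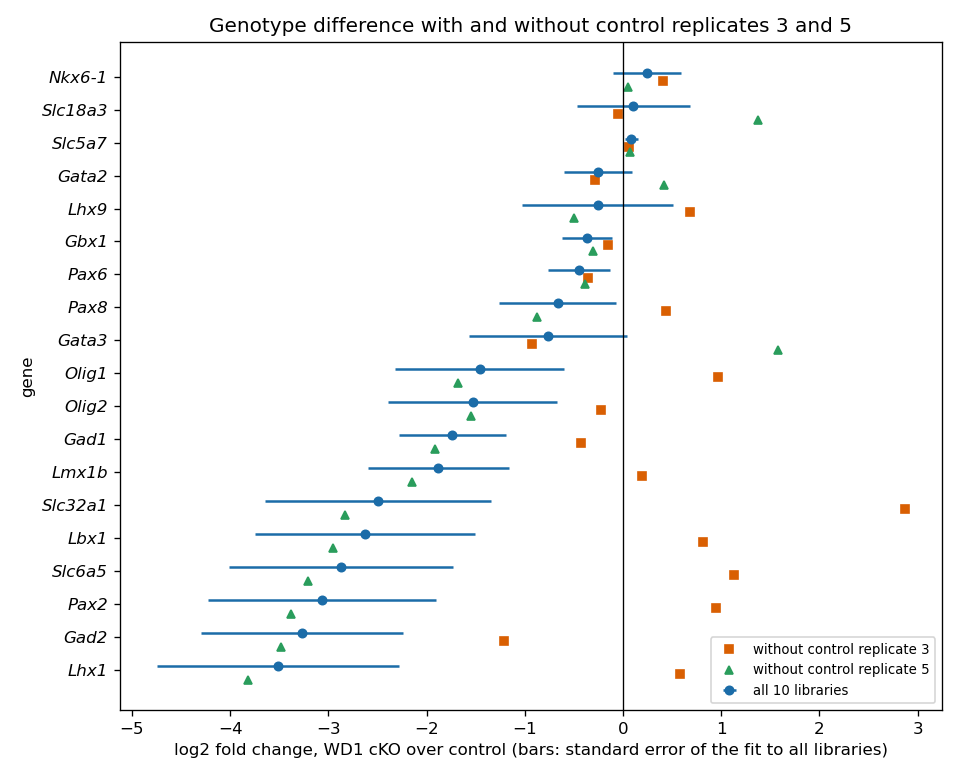
Log2 fold change, WD1 cKO over control, of the 19 genes averaging 3 or more counts, fitted to all 10 libraries (blue, bars are standard errors), without control replicate 3 (orange squares) and without control replicate 5 (green triangles). The dorsal genes at the bottom lie below 0 with all libraries and move up without control replicate 3, and Gata2, Gata3 and Slc18a3 move up without control replicate 5.

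The genes that the study follows were compared with and without control replicate 3. Calb2, a calcium-binding protein of subsets of sensory neurons and also of dorsal horn neurons, was at 4.79 CPM in control replicate 3, at 3.33 to 4.33 CPM in the other controls and at 0.836 to 1.22 CPM in WD1 cKO. Its log2 fold change was -2.05 (SE 0.16) with all libraries and -1.99 (SE 0.17) without control replicate 3, and it was called in both. Dach1 was also highest in control replicate 3, at 41.5 CPM, and its change was -0.91 (SE 0.06) with and -0.88 (SE 0.06) without that library. Mef2c, a transcription factor of neurons and muscle, was lowest among controls there, at 77.2 CPM against 81.7 to 91.2 CPM, and its change was -0.38 (SE 0.05) with and -0.42 (SE 0.05) without that library. Chodl was at 0.32 (SE 0.07, adjusted p = 0.397 in edgeR) with and 0.30 (SE 0.08, adjusted p = 0.831) without control replicate 3, and Shox2 at 0.31 (SE 0.08, adjusted p = 0.699) and 0.29 (SE 0.08, adjusted p = 0.845). None of the 5 changed sign without that library. The study chose its genes on an unadjusted p with a fold change limit, a different mark from the adjusted p in edgeR. It also examined all 5 genes in tissue sections, with immunostaining for the proteins of Calb2 and Mef2c.

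Reads of some of the genes could come from a neighbour, because the strand setting of the counting is not given in the sources used here. In GRCm38 gene models a gene on the other strand overlaps exons of Pax8, Lhx5, Slc32a1, Evx1, Gata3, Sox21, Nkx2-2 and Olig1. Values of these genes are uncertain to that extent. Gata3 also overlaps 9230102O04Rik on its own strand, so its reads are uncertain whatever the strand setting. Pax2, Lbx1, Lhx1, Slc6a5, Gad1, Gad2 and Lmx1b, which were high in control replicate 3, had no such overlap.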

How the data were processed

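RNA of DRG at E18.5 was sequenced from stranded mRNA libraries. Per the study's methods, the authors aligned reads to GRCm39 with STAR 2.7.8a (bcl2fastq 2.20.0.422 before it) and deposited raw counts per Ensembl gene from featureCounts 2.0.1, with a strand setting not given in the sources used here. Counts of 37123 genes with at least 1 count were compared between groups with edgeR 4.0.16 (quasi-likelihood, TMM, no further filter, Benjamini-Hochberg) in R 4.3.3, and alternatively with DESeq2 1.42.0, another scaling, a filter, the replicate number as a term and each library left out. CPM used TMM-scaled totals, and 3 counts equal 0.0873 to 0.152 CPM over the libraries. The code was tested on simulated data. Symbols (52081 of 55414 identifiers), lengths and promoters came from GRCm38. Of 111 listed genes, 1 had no match. Members and lists were chosen with earlier results of these data known. All 31 members are given, with fold changes for those averaging 3 or more counts. The 10 genes most like them had the largest ratio of control replicate 3 to the next library, among genes with at least 20 counts there. No 2 replicates agreed within sampling noise (chi-square over its degrees of freedom was 4.33 or more for each pair).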

Additional observations from a re-analysis of the deposited data

Results flagged for a closer look

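For each gene with a count, each group of 5 libraries was searched for a highest or lowest library whose gap to the nearest other exceeded Dixon's 95% critical value of 0.71 times the group's range. Of 58 groups, 22 met this mark. Chance alone marks about 1 in 20 groups, but the list was drawn up with part of this pattern known, its genes rise together and many counts are near 0, so the number was not set against that rate. Control replicate 3 was the library in 13 of them, with 3.80 CPM for Pax2, 1.46 for Pax8, 1.93 for Lbx1, 3.15 for Lhx1, 0.563 for Lhx5, 4.65 for Slc6a5, 3.29 for Slc32a1, 7.70 for Gad1, 1.97 for Gad2, 7.94 for Lmx1b, 0.516 for Sox21, 2.68 for Olig1 and 0.798 CPM for Olig2. Control replicate 5 was the library for Gata2 at 8.78, Gata3 at 3.41 and Slc18a3 at 0.918 CPM.

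In WD1 cKO, replicate 3 was far from the others for Slc6a5 at 0.368 CPM and Slc32a1 at 0.301 CPM, and replicate 4 for Gad1, where it was the lowest at 0.455 CPM. The remaining flags rest on 1 or 2 counts, namely Evx2 in control replicate 2 (0.0438 CPM) and WD1 cKO replicate 3 (0.0334 CPM) and Nkx2-2 in control replicate 2 (0.0877 CPM). What set these libraries apart was not tested.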

How the results depend on the processing

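Depth limits the list, since only 7 of the 31 genes passed a filter of 10 counts in 5 libraries. Of the 19 fitted fold changes, all kept their direction and stayed below the threshold with DESeq2's size factors, and all 7 that could be tested did so under the filter. The number of genes called was 10, and 7 under the filter. It was 20 with the DESeq2 Wald test, which gave no p for Pax2, Lbx1, Lhx1, Slc6a5, Slc32a1, Gad1, Lmx1b and Olig1, and 8 to 14 with 1 library left out, and none of the listed genes was called in these fits. Without control replicates 3 and 5 together, a setting chosen after seeing the data, it was 18, with 0 listed genes called and a median log2 fold change of the list of 0.43. Of the 21 listed genes with at least 10 counts in some library, 13 exceeded the next library in control replicate 3 by more than 3 times, 15 were highest there by any margin and 7 by a margin of 10 times.

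With 1 library left out, the median log2 fold change of the list was between -0.90 and 0.061, the latter without control replicate 3. Fold changes that changed sign when a library was left out ranged from -3.66 to 0.95 for Pax2, -0.90 to 0.43 for Pax8, -3.19 to 0.81 for Lbx1, -4.20 to 0.58 for Lhx1, -3.93 to 1.14 for Slc6a5, -3.39 to 2.87 for Slc32a1, -2.15 to 0.19 for Lmx1b, -0.71 to 0.69 for Lhx9 and -1.83 to 0.97 for Olig1, positive without control replicate 3 (and for Lhx9 also without WD1 cKO replicate 3). Those of Gata2 (-0.45 to 0.42) and Gata3 (-1.11 to 1.58) turned without control replicate 5, and that of Slc18a3 (-0.16 to 1.38), 0.11 with all libraries, fell below 0 in 6 fits.

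Groups share replicate numbers, and the numbers were checked for pairing. Deviations from the group mean of same-numbered libraries correlated at 0.31, -0.08, 0.29, 0.35 and 0.42 over 17409 genes, and not every library correlated best with its own number, so the numbers were not taken to pair the samples. With the replicate block 396 genes were called, 8 of them listed (Pax2, Lbx1, Lhx1, Slc6a5, Slc32a1, Gad1, Gad2 and Lmx1b, all lower in WD1 cKO). With the block and the filter, 8 genes and 0 listed genes were called. With the block and control replicate 3 left out, 206 genes and 0 listed genes were called, with a list median of 0.10. The last 2 of these settings were chosen after seeing the data. The cause was not tested.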

Other observations

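Genes outside the list that were most like it were taken as the 10 with the largest ratio of control replicate 3 to the next library, among 15463 genes with at least 20 counts in control replicate 3. They were chosen on these values, so the values are a description. Sall3, a zinc finger factor of the nervous system, had 137 counts in control replicate 3 and 0 to 4 elsewhere, a ratio to the next library of 31.8. Lamp5, a membrane protein of neurons, had 102 counts against 1 to 8, a ratio of 16.3. Neurod2, a factor of central neurons, had 21 counts against at most 1. Pou3f3, a factor of the central nervous system, had 59 against 2 to 13, Skor1 49 against 0 to 11, Neurod6 29 against 0 to 6, and Otof, which acts in vesicle release, 224 against 23 to 53 counts.

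The remaining 3 were unnamed transcripts, C130021I20Rik (191 counts against 6 to 29), Gm3764 (157 against 2 to 20) and Gm14204 (21 against 0 to 5). In GRCm38 gene models, C130021I20Rik lies 682 bases from Lmx1b on the opposite strand, and Gm14204 lies 44 bases from Slc32a1 on the opposite strand. Both neighbours are genes that were high in the same library, and neither pair overlaps in these models.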
